A study of Mus musculus with 9 samples.

Results

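Condensin and cohesin were followed through 10 subunit genes, picked by name for what their proteins do and read from the rows of the deposited expression tables that carry those symbols. The 5 condensin genes were Smc2, Smc4, Ncapd2, Ncapg and Ncaph, and the 5 cohesin genes were Smc1a, Smc3, Rad21, Stag1 and Stag2. All 10 symbols were found among the 23360 genes listed for each library. RNA was measured in 9 mouse libraries, 3 per group. A1G tumors were medulloblastomas, tumors of the cerebellum, from animals with Math1-cre, the A1G allele and Ptch1+/-, on a mixed strain background. The series describes them as driven by ATOH1 together with aberrant Sonic Hedgehog signaling, and Math1-cre is Cre recombinase under the promoter of Math1, another name of Atoh1. Ptch1 tumors were medulloblastomas from Ptch1+/- animals, also of mixed strain, so both tumor groups share the Ptch1 allele, which disables 1 copy of a receptor that restrains Hedgehog signaling. The control was whole cerebellum of wild-type adult C57BL/6 mice, so strain and tumor growth cannot be told apart in any comparison with it. The labels number the libraries as replicates without saying whether they came from separate animals, so p-values measure the spread between libraries.

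Condensin and cohesin are ring-shaped protein complexes built on a pair of SMC ATPases, long coiled-coil proteins that meet at a hinge. A kleisin subunit closes the ring, and HEAT-repeat subunits bind it and DNA. Condensin extrudes DNA loops to compact chromosomes for mitosis and is needed chiefly in dividing cells. Cohesin holds sister chromatids together from replication to anaphase, and it also folds interphase chromatin into loops, so neurons that no longer divide keep using it. The cells from which Hedgehog-driven medulloblastoma arises, granule neuron progenitors, divide rapidly, whereas adult cerebellum consists mostly of postmitotic neurons and glia.

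The stretch of DNA at each gene's RefSeq start was read from the RefSeq promoter table (GRCm38.p6, 250 bases before to 50 bases after the start), which had entries for 7 of the 10 genes, 4 of condensin and 3 of cohesin. Rad21, Stag2 and Smc4 were not in the table. These sequences are shown because RNA of the 2 complexes differed from cerebellum to unlike degrees, and promoters of genes used in cell division often carry a small set of short elements. The elements searched on both strands were the cell cycle genes homology region (CHR, TTTGAA or TTCGAA), the CCAAT box (CCAAT) and an E2F-type element (TTCCCGC or TTGGCGC). No match of one element overlapped a match of another in these windows. Printed below, 5′ to 3′ on the gene's strand with the matches in capitals, are the windows of Smc2 (chr4:52438971-52439270, + strand), Ncapd2 (chr6:125191537-125191836, - strand), Ncapg (chr5:45669675-45669974, + strand) and Ncaph (chr2:127133905-127134204, - strand). They are followed by those of 2 cohesin ATPases, Smc1a (chrX:152016178-152016477, + strand) and Smc3 (chr19:53600146-53600445, + strand).
Smc2: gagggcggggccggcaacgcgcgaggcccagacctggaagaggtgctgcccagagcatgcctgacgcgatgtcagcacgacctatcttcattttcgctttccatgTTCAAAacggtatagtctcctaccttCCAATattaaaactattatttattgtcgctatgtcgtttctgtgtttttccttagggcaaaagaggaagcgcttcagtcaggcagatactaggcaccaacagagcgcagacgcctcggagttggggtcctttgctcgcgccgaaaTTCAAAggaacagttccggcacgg
Ncapd2: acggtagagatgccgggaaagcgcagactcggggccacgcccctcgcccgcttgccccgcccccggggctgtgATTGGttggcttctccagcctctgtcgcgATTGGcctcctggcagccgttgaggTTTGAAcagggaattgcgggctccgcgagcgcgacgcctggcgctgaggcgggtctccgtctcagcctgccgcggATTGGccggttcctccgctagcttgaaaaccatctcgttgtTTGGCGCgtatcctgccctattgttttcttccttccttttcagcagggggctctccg
Ncapg: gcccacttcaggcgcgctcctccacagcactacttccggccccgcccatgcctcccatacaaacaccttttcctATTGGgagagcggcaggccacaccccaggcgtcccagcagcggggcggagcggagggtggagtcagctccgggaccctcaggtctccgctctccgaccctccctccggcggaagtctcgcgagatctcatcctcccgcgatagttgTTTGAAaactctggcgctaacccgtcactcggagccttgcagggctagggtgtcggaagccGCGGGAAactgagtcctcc
Ncaph: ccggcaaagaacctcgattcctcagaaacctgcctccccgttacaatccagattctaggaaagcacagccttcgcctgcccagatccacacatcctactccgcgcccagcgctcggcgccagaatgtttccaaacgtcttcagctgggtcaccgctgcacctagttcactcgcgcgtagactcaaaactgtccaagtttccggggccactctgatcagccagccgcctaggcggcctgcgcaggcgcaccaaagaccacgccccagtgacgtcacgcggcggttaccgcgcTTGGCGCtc
Smc1a: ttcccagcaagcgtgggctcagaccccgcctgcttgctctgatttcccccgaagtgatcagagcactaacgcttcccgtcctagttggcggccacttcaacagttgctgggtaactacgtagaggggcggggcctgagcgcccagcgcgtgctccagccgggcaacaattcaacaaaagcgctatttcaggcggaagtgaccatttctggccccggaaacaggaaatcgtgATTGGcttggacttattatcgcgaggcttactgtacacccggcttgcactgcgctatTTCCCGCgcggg
Smc3: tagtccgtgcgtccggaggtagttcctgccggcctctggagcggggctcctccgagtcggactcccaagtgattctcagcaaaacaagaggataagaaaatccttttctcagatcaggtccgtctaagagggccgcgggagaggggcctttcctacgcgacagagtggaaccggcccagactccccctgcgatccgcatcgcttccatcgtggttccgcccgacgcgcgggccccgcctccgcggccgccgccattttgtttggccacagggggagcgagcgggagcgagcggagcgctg

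A CHR element was present in the windows of 3 of the 4 condensin genes, Smc2, Ncapd2 and Ncapg, and in 0 of the 3 cohesin windows, against 19.2% of the 32851 windows in the table. Smc2 held 2 CHR matches, and Ncapd2 and Ncapg held 1 each. A CCAAT box was found for the same 3 condensin genes and for Smc1a and Stag1, against 37.4% of windows, and Ncapd2 held 3 of them. The Stag1 window (chr9:100643198-100643497, + strand) belongs to a start well inside the gene's annotated span, so its matches are not those of the outermost start. The E2F-type element was found in Ncapd2, Ncapg, Ncaph, Smc1a and Stag1, against 6.81% of windows. Smc3 held no match to any of the 3 elements. These are matches of letters in a fixed window, with no measurement of binding. Whether the elements bear on the RNA differences was not tested.

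The SMC ATPases of condensin were abundant in every tumor library and scarce in cerebellum. Levels between libraries are given as CPM, fragments scaled to a common library size over all 9 libraries, which held 2350941 to 9290237 fragments per library. Smc2 (mm10, chr4:52439243-52488260, + strand), the ATPase found in both forms of condensin, had 876, 257 and 449.9 CPM in A1G tumors, 992, 1079 and 744 CPM in Ptch1 tumors, and 34.1, 30.4 and 12.4 CPM in cerebellum. Its lowest tumor library, A1G replicate 2, stood far above the highest cerebellum library. Smc4 (chr3:69004738-69034623, + strand), its ATPase partner, had 812, 218 and 512 CPM in A1G tumors, 887, 946 and 731 CPM in Ptch1 tumors, and 53.0, 50.2 and 28.4 CPM in cerebellum. The groups again did not overlap, and A1G replicate 2 was again the lowest tumor library. Over the 6 tumor libraries against the 3 of cerebellum, Smc2 rose by 4.78 ± 0.50 on the log2 scale (SE), a 27.5-fold difference, and Smc4 by 3.92 ± 0.44, or 15.1-fold, with adjusted p = 1.43e-05 and 2.38e-05 (edgeR's quasi-likelihood test, Benjamini-Hochberg over the 14337 genes tested).

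Of the 3 subunits that complete condensin I, Ncapg and Ncaph differed by more than the ATPases and Ncapd2 by less. Ncaph (chr2:127103809-127133954, - strand), the kleisin that closes the condensin I ring, had 91.0, 59.3 and 76.1 CPM in A1G tumors, 99.1, 92.3 and 69.7 CPM in Ptch1 tumors, and 0.788, 1.22 and 3.39 CPM in cerebellum. Every tumor library held at least 59.3 CPM and no cerebellum library more than 3.39 CPM. Ncapg (chr5:45669919-45700546, + strand), a HEAT-repeat subunit, had 165, 45.8 and 97.1 CPM in A1G tumors, 141, 190.1 and 92.3 CPM in Ptch1 tumors, and 1.31, 0 and 0.599 CPM in cerebellum. Cerebellum was thus near the limit of detection for Ncapg, where 3 fragments in a library correspond to 0.599 to 0.912 CPM. Ncapd2 (chr6:125168007-125191701, - strand), the other HEAT-repeat subunit, had 288, 259 and 153 CPM in A1G tumors, 284, 271 and 338 CPM in Ptch1 tumors, and 21.8, 27.4 and 42.9 CPM in cerebellum. Ncapd2 was the condensin gene with the smallest difference, yet its groups did not overlap either.

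In the same test, Ncapg rose by 7.45 ± 0.69 on the log2 scale in tumors against cerebellum, Ncaph by 5.40 ± 0.44 and Ncapd2 by 3.10 ± 0.32, with adjusted p between 2.32e-06 and 1.29e-05. Ncapg counts carry a limit, since 944 of its exon bases lie under the gene Lcorl on the opposite strand and strand-aware counting is not stated. Its fragments were not whole numbers in 8 libraries. Lcorl itself had 105, 108 and 76 fragments in cerebellum, where Ncapg was nearly absent. Ncapd2 shares 237 exon bases with the small RNA gene Scarna10 on the same strand, which had 18, 198 and 1 fragments in A1G tumors, 37, 118 and 17 in Ptch1 tumors, and 16, 29 and 13 in cerebellum. Ncapg and Ncaph passed the filter on low values through their tumor levels (at least 3 libraries with FPKM of 1 or more). Their calls are therefore given beside those of a fit with no filter, in which all 10 subunit genes were called higher in tumors. In that fit 15.4% of genes were called higher.

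**Figure D1:**
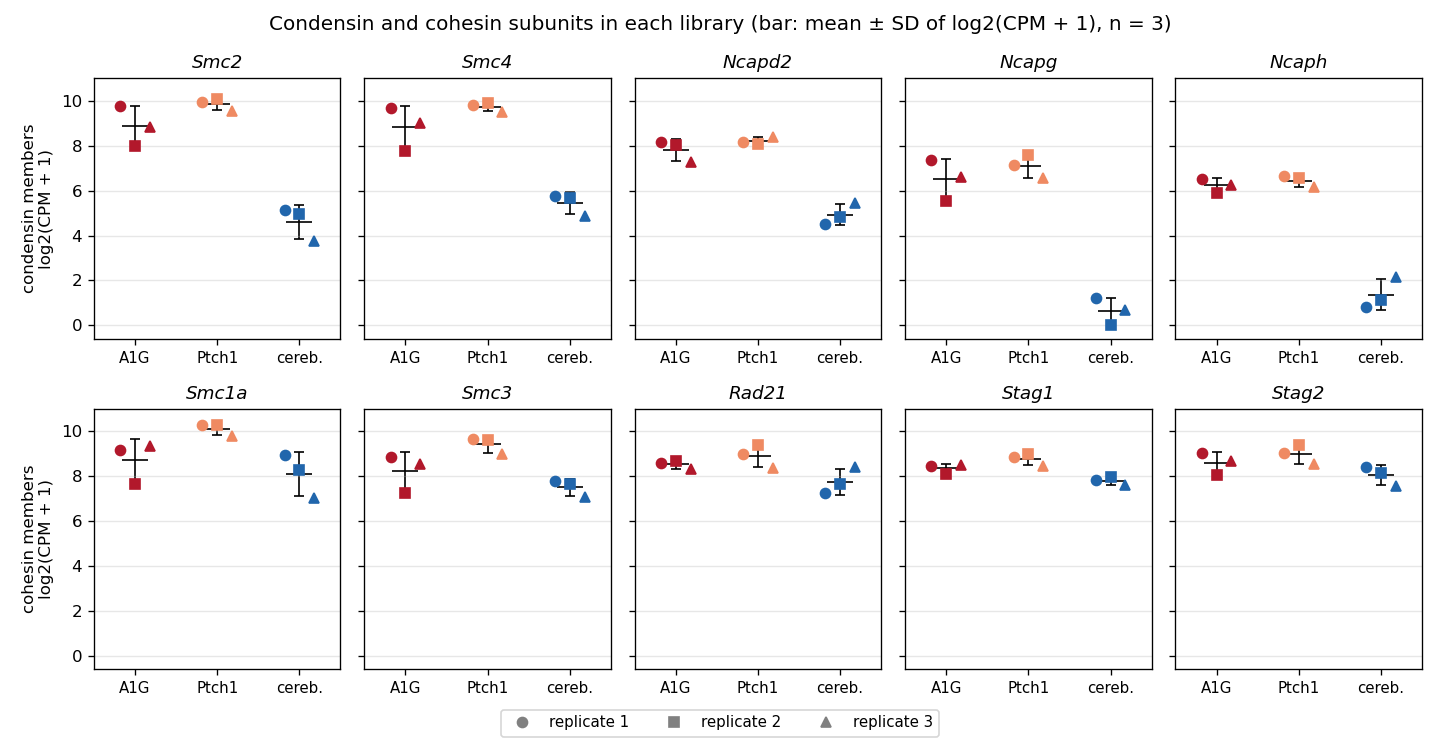
Level of each subunit gene in each library on a log2(CPM + 1) scale, condensin in the top row and cohesin in the bottom row, with A1G tumors, Ptch1 tumors and cerebellum from left to right. Symbols mark replicates and bars the mean ± SD (n = 3). The 5 condensin genes separate all tumor libraries from cerebellum, and Ncapg in cerebellum lies at 0 to 1.31 CPM, while tumor and cerebellum libraries of Smc1a, Smc3, Rad21 and Stag2 overlap.

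Cohesin genes were expressed in every library, cerebellum included, and differed far less. Smc1a (chrX:152016428-152062694, + strand), a cohesin ATPase, had 560.3, 199 and 645 CPM in A1G tumors, 1219, 1218 and 882 CPM in Ptch1 tumors, and 489, 304 and 128 CPM in cerebellum. Ptch1 tumors were the highest group, and A1G replicate 2 fell within the range of cerebellum. Smc3 (chr19:53600398-53645833, + strand), the ATPase that pairs with Smc1a, had 451, 148 and 373 CPM in A1G tumors, 809.6, 766 and 506 CPM in Ptch1 tumors, and 219, 198 and 131 CPM in cerebellum. The order was the same, with A1G replicate 2 among the cerebellum libraries. Against cerebellum, the 6 tumor libraries were higher by 1.23 ± 0.44 on the log2 scale for Smc1a (adjusted p = 0.0401) and by 1.38 ± 0.36 for Smc3 (adjusted p = 0.00782).

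Rad21 (chr15:51962240-51991747, - strand), the kleisin that separase cleaves at anaphase, had 379, 406 and 316 CPM in A1G tumors, 500.3, 662 and 325 CPM in Ptch1 tumors, and 150.0, 196 and 331 CPM in cerebellum. Cerebellum replicate 3 exceeded 2 tumor libraries. Stag1 (chr9:100597798-100959375, + strand), a HEAT-repeat subunit that makes 1 of the 2 somatic forms of cohesin, had 349, 271 and 352 CPM in A1G tumors, 464, 505 and 349 CPM in Ptch1 tumors, and 228, 246 and 192 CPM in cerebellum. It was the single cohesin gene whose 6 tumor libraries all exceeded the 3 of cerebellum. Stag2 (chrX:42149317-42277185, + strand), its alternative in the other form, had 518, 265 and 405 CPM in A1G tumors, 513, 665 and 367 CPM in Ptch1 tumors, and 339.6, 275 and 185 CPM in cerebellum. Its A1G replicate 2 lay below 2 cerebellum libraries. The log2 differences of tumors from cerebellum were 0.92 ± 0.31 for Rad21 (adjusted p = 0.0297), 0.77 ± 0.22 for Stag1 (adjusted p = 0.0155) and 0.76 ± 0.30 for Stag2, which missed the threshold (adjusted p = 0.0589).

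Counted over the complexes, 9 of the 10 genes were called higher in tumors than in cerebellum, 5 of condensin and 4 of cohesin, where 20.7% of all tested genes were called higher. The median log2 difference was 4.78 for the condensin genes and 0.92 for the cohesin genes, beside 0.01 for all genes tested. The 6 tumor libraries all lay above the 3 of cerebellum for 6 of the 10 genes, the 5 of condensin and Stag1, as for 18.5% of tested genes. The condensin calls held with any 1 library left out. The call of Smc1a held in only 3 of the 9 fits that left out 1 library, with adjusted p up to 0.126, and that of Rad21 in 5 of 9, with adjusted p up to 0.125. In bulk tissue, fewer cells of a type and less RNA per cell cannot be told apart.

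Taken separately, each kind of tumor stood above cerebellum in all 5 condensin genes. In A1G tumors against cerebellum the log2 differences were 4.37 ± 0.51 for Smc2, 3.55 ± 0.45 for Smc4, 2.92 ± 0.34 for Ncapd2, 7.22 ± 0.71 for Ncapg and 5.29 ± 0.46 for Ncaph. In Ptch1 tumors against cerebellum they were 5.20 ± 0.53, 4.29 ± 0.47, 3.27 ± 0.34, 7.68 ± 0.71 and 5.50 ± 0.46 in the same order of genes. For cohesin the calls differed by kind. In A1G tumors 0 of 5 cohesin genes passed the test. Their log2 differences ran from 0.55 for Stag1 to 0.83 for Smc3, with adjusted p of 0.117 to 0.367. With edgeR, 1 of them had an unadjusted p under 0.05, where 42.6% of tested genes did. DESeq2 and limma each gave 2, without a share over all genes to set beside it.

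In Ptch1 tumors all 5 cohesin genes were called higher, by 1.85 ± 0.50 for Smc1a, 1.93 ± 0.40 for Smc3, 1.14 ± 0.34 for Rad21, 0.99 ± 0.25 for Stag1 and 0.95 ± 0.34 for Stag2 on the log2 scale, with adjusted p of 0.00222 to 0.0404. Altogether 5 of 10 subunit genes were called higher in A1G tumors, where 16.3% of tested genes were, and 10 of 10 in Ptch1 tumors, where 20.2% were. The 2 comparisons use the same cerebellum libraries. In Ptch1 tumors the calls of Stag2 and Rad21 held in 4 and 5 of the 9 fits that left out 1 library, with adjusted p up to 0.149 and 0.0858. In A1G tumors Smc3 passed without A1G replicate 2 (1.17, adjusted p = 0.0118) and Rad21 without cerebellum replicate 3 (1.10, adjusted p = 0.0298). The test of a difference between the tumor kinds is their direct comparison.

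**Figure D2:**
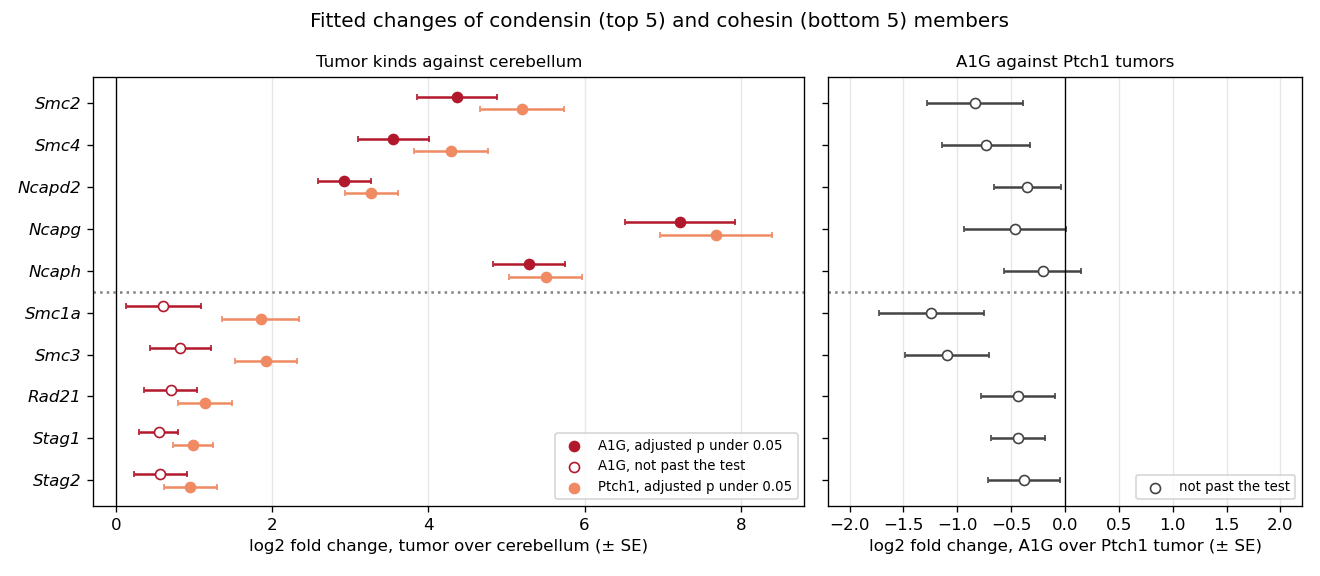
Fitted log2 fold changes with their standard errors for the 10 subunit genes, condensin above the dotted line and cohesin below it. The left panel sets A1G tumors and Ptch1 tumors against cerebellum, the right panel A1G tumors against Ptch1 tumors, and filled points have an adjusted p under 0.05. Condensin genes lie between 2.92 and 7.68 in the left panel, cohesin genes between 0.55 and 1.93, and no point of the right panel is filled.

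Between A1G and Ptch1 tumors no subunit gene passed the test, in a comparison where 0.0139% of all tested genes, 2 of 14337, did. DESeq2 and limma likewise called 0 of the 10 and gave 2 cohesin genes each an unadjusted p under 0.05. Their shares over all genes were not computed. With edgeR, 2 of the 10, both of cohesin, had an unadjusted p under 0.05, as did 10.6% of all tested genes. Those 2 were the ATPases Smc1a, with a log2 difference of -1.24 ± 0.49 (unadjusted p = 0.0252, adjusted p = 0.402), and Smc3, with -1.10 ± 0.39 (unadjusted p = 0.0149, adjusted p = 0.367). They were also the 2 subunit genes whose A1G libraries all lay below the Ptch1 libraries, as 8.84% of tested genes did. Without A1G replicate 2 the log2 difference was -0.88 for Smc1a and -0.75 for Smc3. At the other end it was -1.54 for Smc1a without A1G replicate 3 and -1.41 for Smc3 without A1G replicate 1. For the other 8 genes the fitted log2 differences ran from -0.83 ± 0.45 for Smc2 and -0.73 ± 0.41 for Smc4, through Ncapg at -0.46, Stag1 and Rad21 at -0.44, Stag2 at -0.38 and Ncapd2 at -0.35, to -0.21 ± 0.36 for Ncaph, with adjusted p of 0.529 to 0.873. Leaving out 1 library moved these values to between -1.41 and -0.50 for Smc2, -1.23 and -0.37 for Smc4 and -0.99 and -0.11 for Ncapg, in each case without A1G replicate 1 and without A1G replicate 2. The range was -0.66 to -0.17 for Rad21 (without Ptch1 replicates 3 and 2), -0.62 to -0.15 for Stag2 (without A1G replicate 1 and Ptch1 replicate 2), -0.53 to -0.12 for Ncapd2 (without A1G replicates 1 and 3), -0.37 to -0.061 for Ncaph (without A1G replicates 1 and 2) and -0.58 to -0.33 for Stag1. The fitted level was lower in A1G tumors for 10 of 10, where it was lower for 48.3% of tested genes. In data simulated at these depths for A1G against Ptch1 tumors, the test recovered 4.48% of 2-fold changes and 80.6% of 4-fold changes. The changed genes were drawn at random from genes averaging at least 10 CPM. Level and spread were not matched to the subunit genes, so these rates are not theirs. A subunit gene that was not called may still differ.

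Markers of dividing cells were measured beside the subunits. All 12 of 12 were called higher in tumors than in cerebellum, where 20.7% of tested genes were. All 12 were also called higher with no filter, where 15.4% of genes were. Of them, 7 had an FPKM under 1 in all 3 cerebellum libraries and passed the filter through tumors. Their summed level was 1599 to 5320 CPM in A1G tumors, 5216 to 6583 CPM in Ptch1 tumors and 29.6 to 59.4 CPM in cerebellum. Mki67, which encodes the Ki-67 antigen of cycling cells, had 3475, 620.3 and 2597 CPM in A1G tumors, 3433, 3946 and 3913 CPM in Ptch1 tumors, and 5.51, 7.30 and 3.79 CPM in cerebellum. Ccnb1 had 1 fragment in cerebellum altogether, and Cdk1 and Aurkb had 2 each. A1G replicate 2 was the lowest tumor library for Mki67, as it was for 8 of the 10 subunit genes, the exceptions being Ncapd2 and Rad21. Between A1G and Ptch1 tumors 0 of the 12 markers passed the test, and their median log2 difference was -0.46, beside -0.46 for the condensin genes, -0.44 for the cohesin genes and 0.02 for all genes tested. The part of dividing cells in the subunit differences was not tested.

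The tissue labels were checked against other markers. Of 6 genes of granule neuron progenitors, 5 were called higher in tumors, where 20.7% of tested genes were. Mature granule neuron markers summed to 553 to 2677 CPM in A1G tumors, to 573 to 1259 CPM in Ptch1 tumors and to 7085 to 7664 CPM in cerebellum. The A1G sum was highest in replicate 2 through Neurod1 (1743 CPM) and Cbln1 (652 CPM), and Slc17a7 was highest there too (39.6 CPM). Gabra6, Cbln3, Grin2c and Snap25 were instead highest in A1G replicate 3, at 40.7, 142, 44.4 and 295 CPM. Purkinje cell markers summed to 329 to 705 CPM in A1G tumors, 189 to 274 CPM in Ptch1 tumors and 8433 to 11061 CPM in cerebellum. The Purkinje marker Calb1 was 1 of the 2 genes called between A1G and Ptch1 tumors, with 14.0, 24.0 and 14.0 CPM in A1G tumors and 1.83, 1.01 and 0.766 CPM in Ptch1 tumors, a log2 difference of 3.81 ± 0.40 (adjusted p = 0.00627). Without Ptch1 replicate 2, 0 genes were called. The median log2 difference of the 6 Purkinje markers between A1G and Ptch1 tumors was 2.21, beside 0.02 for all genes tested. The part of Purkinje cells in the subunit differences was not tested. Oligodendrocyte markers summed to 319 to 419 CPM in A1G tumors, 63.9 to 379 CPM in Ptch1 tumors and 7482 to 7984 CPM in cerebellum. In the same order of groups, markers of astrocytes and Bergmann glia summed to 626 to 797, 294 to 1112 and 4389 to 6830 CPM, those of microglia and macrophages to 206 to 314, 129.9 to 228 and 113 to 144 CPM, those of endothelium to 62.9 to 115, 39.4 to 102 and 115 to 174 CPM, and 3 hemoglobin and other red cell genes to 11.5 to 17.7, 3.89 to 15.7 and 204 to 319 CPM. Libraries also differed in base composition. Across 9969 genes, the deviation of a library from its group's mean rose with GC content in A1G replicate 2 (Spearman's rho 0.266), Ptch1 replicate 3 (0.265) and cerebellum replicate 3 (0.316), and was negatively related to it in the other 6 libraries (-0.231 to -0.118). Transcript GC content ran from 34.8% for Ncapg to 54.0% for Ncapd2. Cerebellum replicate 3 was the lowest cerebellum library for 6 genes, Stag2 (38.1% GC), Smc2 (39.7%), Smc4 (40.2%), Stag1 (41.9%), Smc3 (42.3%) and Smc1a (46.9%). It was the highest for Rad21 (44.3%), Ncaph (48.4%) and Ncapd2, so the order by GC content did not hold for Smc1a and Rad21. With a correction for GC content, added after seeing the data, 8 of 10 genes were called in tumors and in Ptch1 tumors against cerebellum, and 5 of 10 in A1G tumors, where 21.1%, 21.2% and 17.1% of genes tested under that correction were called higher. Rad21 (adjusted p = 0.0775 in tumors and 0.0520 in Ptch1 tumors) and, in Ptch1 tumors, Stag2 (adjusted p = 0.0549) then missed the threshold.

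Smc1a and Stag2 lie on the X chromosome, so sex-linked RNA was read beside them. Xist, the RNA of the inactive X chromosome in females, had 2258, 3.74 and 4213 CPM in A1G tumors, 0, 1.57 and 46.4 CPM in Ptch1 tumors, and 482, 645 and 1018 CPM in cerebellum. Ptch1 tumors, with the highest Smc1a levels, thus had the least Xist, and A1G replicate 2, the A1G library with the least Smc1a, had little as well. The Y-linked gene Kdm5d had 0.369, 83.9 and 0 CPM in A1G tumors, 137, 141 and 0 CPM in Ptch1 tumors, and 0, 0.304 and 0 CPM in cerebellum. Ddx3y, Eif2s3y and Uty were likewise at 34.8 CPM or more in A1G replicate 2 and Ptch1 replicates 1 and 2 and at 1.11 CPM or less in the other libraries, so Ptch1 replicate 3 had little Xist and no Y-linked RNA. The part of sex in the Smc1a and Stag2 values was not tested.

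Within a library, levels of different genes can be compared per length, as FPKM. In all 3 cerebellum libraries the 5 cohesin genes ranked above the 5 condensin genes. The lowest cohesin gene was Stag1 at 38.2 and 40.4 FPKM in replicates 1 and 2 and Smc3 at 27.4 FPKM in replicate 3, whereas the highest condensin gene was Smc4 at 13.3 and 12.4 FPKM and Ncapd2 at 9.71 FPKM. In tumors the complexes intermingled. Smc4 ranked 1, 3 and 2 among the 10 genes in A1G tumors and 2 in each Ptch1 tumor, with 209, 57.4 and 131 FPKM in A1G tumors and 228, 237 and 189 FPKM in Ptch1 tumors. Ncapg and Ncaph held the last 2 ranks in all 9 libraries, with 13.4 to 47.3 and 24.3 to 36.6 FPKM in A1G tumors, 26.5 to 52.7 and 28.1 to 39.7 FPKM in Ptch1 tumors, and 0 to 0.340 and 0.308 to 1.33 FPKM in cerebellum.

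The summed FPKM of the 5 condensin genes was 1.04, 0.684 and 0.658 of that of the 5 cohesin genes in A1G tumors, 0.697, 0.686 and 0.828 of it in Ptch1 tumors, and 0.0813, 0.0946 and 0.0942 of it in cerebellum. Each tumor library thus lay far above the cerebellum libraries. On the log2 scale the ratio averaged -0.36 ± 0.37 in A1G tumors, -0.45 ± 0.15 in Ptch1 tumors and -3.48 ± 0.12 in cerebellum (SD, n = 3 each). A1G replicate 2, low in the level of both complexes, did not stand apart in this ratio.

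Pairs of subunits with matching roles were compared within libraries, where scaling between libraries does not enter. The log2 ratio of Smc2 to Smc3 fragments averaged 0.56 ± 0.27 in tumors (SD, n = 6) and -2.93 ± 0.41 in cerebellum (n = 3), a difference of 3.49 with p = 0.0238 in an exact two-sided permutation test (adjusted p = 0.0714 over the 6 ratio tests). No smaller p is possible with 6 and 3 libraries. The ratio of Smc4 to Smc1a averaged -0.13 ± 0.38 in tumors and -2.66 ± 0.52 in cerebellum on the log2 scale, a difference of 2.53 with the same exact p and adjusted p. For both ratios all 6 tumor libraries exceeded all 3 of cerebellum, and neither passed the correction. The ratio of Stag1 to Stag2 averaged -0.23 ± 0.22 in tumors and -0.23 ± 0.32 in cerebellum on the log2 scale, with a difference of 0.01 (exact permutation p = 0.976). Between A1G and Ptch1 tumors the log2 differences were 0.22 for Smc2 to Smc3, 0.48 for Smc4 to Smc1a and -0.04 for Stag1 to Stag2, with exact permutation p of 0.4, 0.2 and 0.9, where 3 against 3 libraries cannot go below 0.1.

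**Figure D3:**
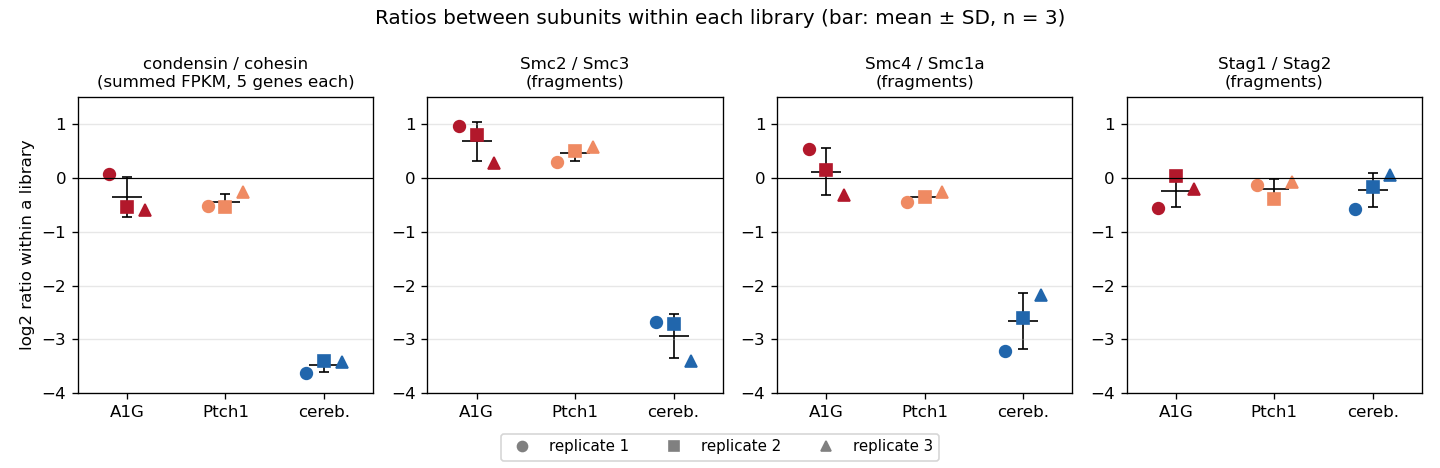
Log2 ratios between subunits within each library, for A1G tumors, Ptch1 tumors and cerebellum from left to right in each panel, with bars for the mean ± SD (n = 3). Condensin over cohesin (summed FPKM), Smc2 over Smc3 and Smc4 over Smc1a (fragments) place all 6 tumor libraries above cerebellum, at -0.60 or more against -3.40 or less for the first, while Stag1 over Stag2 overlaps in all 3 groups.

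Other genes of the same machinery were read from lists chosen by function. Condensin II, the form of condensin that stays in the nucleus through interphase, shares Smc2 and Smc4 and has 3 subunits of its own. Of these, Ncapg2 rose by 4.12 ± 0.40 on the log2 scale in tumors against cerebellum and Ncapd3 by 0.68 ± 0.23, whereas Ncaph2 differed by 0.17 ± 0.22 without passing the test. Ncapg2 had 226, 77.3 and 176 CPM in A1G tumors, 167, 241 and 131 CPM in Ptch1 tumors, and 10.5, 8.82 and 9.78 CPM in cerebellum. Ncapg2 was thus the 1 of the 3 with a difference in the range of the condensin I subunits. The call of Ncapd3 held in 5 of the 9 fits that left out 1 library, with adjusted p up to 0.0980.

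Of 6 genes for loading, positioning and release of cohesin, 4 were called higher in tumors, where 20.7% of tested genes were. Pds5a and Pds5b, which bind the ring and regulate its release, rose by 1.16 ± 0.24 and 1.06 ± 0.26 on the log2 scale. Ctcf, the DNA-binding protein at which cohesin loops stop, rose by 1.06 ± 0.21, with 238, 281 and 232 CPM in A1G tumors, 384, 403 and 326 CPM in Ptch1 tumors, and 144, 129.5 and 165 CPM in cerebellum. Nipbl, the cohesin loader, was called at 0.71 ± 0.25, but the call held in only 2 of the 9 fits that left out 1 library, with adjusted p up to 0.143, and not after GC correction (adjusted p = 0.166). Mau2, the partner of Nipbl, differed by 0.14 ± 0.24 and Wapal (Wapl, the releasing factor) by 0.68 ± 0.26, and neither passed. The median of the 6 genes, 0.89, was near the 0.92 of the cohesin subunits.

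Genes that acetylate, protect or cleave cohesin around mitosis fell into groups of unlike size of change. Of 8, 5 were called higher in tumors, as they were in the fit with no filter, where 15.4% of genes were. Of the 8, 4 had an FPKM under 1 in all 3 cerebellum libraries and so passed the filter on low values through tumors. Cdca5, which encodes sororin, the protector of acetylated cohesin, had 29.5, 20.3 and 29.2 CPM in A1G tumors, 20.8, 31.7 and 19.5 CPM in Ptch1 tumors and no fragment in the 3 cerebellum libraries, which makes it at least 32.8-fold higher in tumors (floor of 3 fragments per library). Esco2, the acetyltransferase of S phase, had 65.2, 14.0 and 53.5 CPM in A1G tumors, 93.4, 78.9 and 54.8 CPM in Ptch1 tumors, and 2 fragments in cerebellum altogether, a ratio of 363 with a 95% counting interval of 100 to 2997. Espl1, which encodes separase, rose by 5.94 ± 0.44 on the log2 scale and Sgol2, a shugoshin that shields centromeric cohesin, by 5.04 ± 0.47, as did Sgol1 by 5.03 ± 0.45.

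The other 3 of these genes did not pass. Esco1, the acetyltransferase active outside S phase, differed by -0.18 ± 0.28 on the log2 scale, Hdac8, which removes the acetyl group from Smc3, by -0.71 ± 0.33, and Pttg1, which encodes the separase inhibitor securin, by 0.66 ± 0.80. Pttg1 had 66.4 CPM in A1G replicate 2, 2.06 to 6.27 CPM in the other 5 tumor libraries and 4.56 to 9.72 CPM in cerebellum. Among 4 meiotic cohesin subunits, Smc1b and Rad21l were below the filter, Rec8 differed by -0.61 ± 0.47 and Stag3 was called higher by 3.25 ± 0.98. Stag3 was low throughout and passed the filter through tumors, with 16.2, 4.99 and 5.35 CPM in A1G tumors, 8.47, 1.12 and 26.1 CPM in Ptch1 tumors, and 0.263, 0.912 and 1.80 CPM in cerebellum. Its groups overlapped, and the call was lost without cerebellum replicate 1 or without cerebellum replicate 2 (adjusted p = 0.0676 and 0.0627).

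The third SMC complex, Smc5/6, acts in DNA repair and replication. With the related protein Smchd1, which acts on the inactive X chromosome, 6 of 8 of its genes were called higher in tumors. Of all tested genes, 20.7% were called higher. The log2 differences were 1.36 ± 0.24 for the ATPase Smc5, 1.40 ± 0.28 for Smchd1, 1.95 ± 0.39 for Nsmce1 and 1.86 ± 0.59 for Eid3, 2 non-SMC subunits of the complex. Eid3 was low, with means of 11.7 CPM in tumors and 3.10 CPM in cerebellum, and it missed the threshold without cerebellum replicate 1 or 2 (adjusted p = 0.0838 and 0.0605). Between A1G and Ptch1 tumors 0 of the genes in these 5 lists passed the test.

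**Figure D4:**
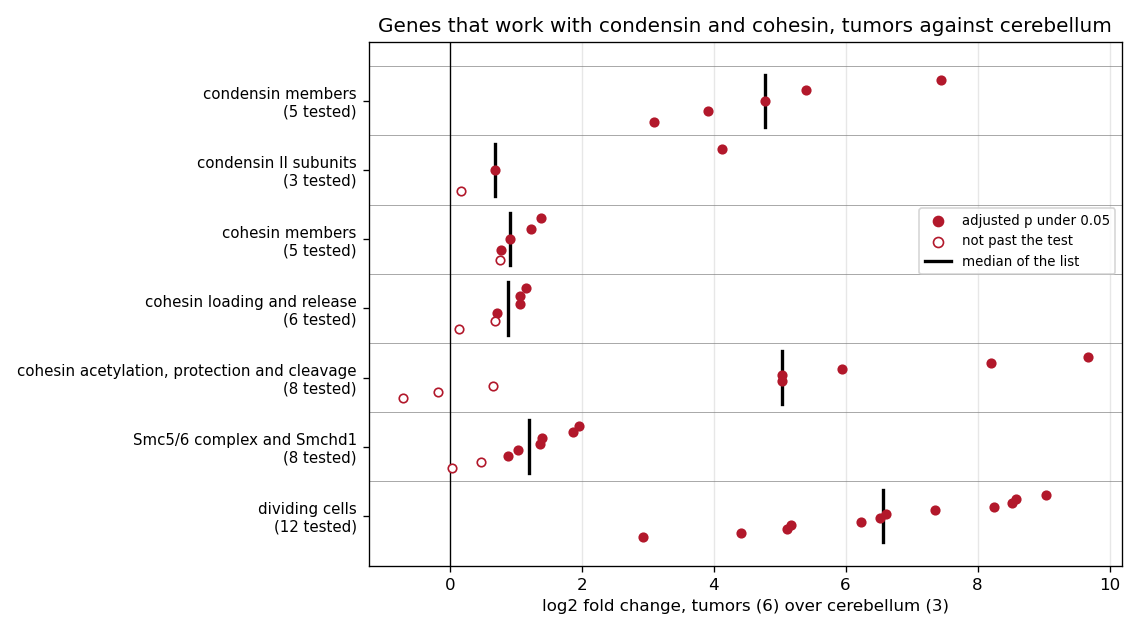
Log2 fold change of tumors (6 libraries) over cerebellum (3 libraries) for each tested gene of condensin, cohesin and the lists of related genes, with the list medians as bars and filled points for an adjusted p under 0.05. Points of Cdca5 and of other genes with few or no fragments in cerebellum depend on the prior count of the fit and are no estimate of the fold. Condensin has a median of 4.78 and dividing cell markers of 6.57, while cohesin has 0.92 and its loading and release genes 0.89.

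The profile of each complex over the 9 libraries was also compared with all other tested genes, by the root mean square difference of centred log2 levels. Closest to the mean condensin profile were Lrig3 (0.123), Hist2h3c1 (0.203), Trip13 (0.222), Parpbp (0.250) and Shcbp1 (0.251), and the condensin genes themselves lay at 0.410 for Smc2 to 0.833 for Ncapd2. Lrig3 averaged 192 CPM in A1G tumors, 249.6 CPM in Ptch1 tumors and 9.26 CPM in cerebellum. Closest to the mean cohesin profile were Uhrf2 (0.128), Haus3 (0.131), Rdx (0.142), Timm8a1 (0.158) and Bclaf1 (0.164), with the cohesin genes at 0.226 for Stag2 to 0.522 for Rad21. Bclaf1 averaged 894 CPM in A1G tumors, 1271 CPM in Ptch1 tumors and 550.3 CPM in cerebellum. The genes named were picked as the nearest of all tested genes, whereas the members were listed by name for their function. That they lay closer than the members is therefore no measure of how alike the members are.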

How the data were processed

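Total RNA of 9 mouse samples was depleted of ribosomal RNA (RiboMinus) and made into libraries with an Ion Total RNA-Seq Kit, of which 3 shared each Ion Proton chip, per the labels' protocols. Which libraries shared a chip, the gene annotation, the counting tool and its use of strand are not given in the sources used here. The build mm10 and Bowtie 0.12.2 are named in the submitters' processing notes. Per the file headers, the deposited estimated counts are raw fragments per gene, the deposited signal columns are those fragments times 1 scaling factor per library, and the deposited FPKM values were scaled for gene length and depth by the authors. Of the subunit genes, Ncapg held fragments that were not whole within 1e-06. The deposited FPKM of tumors and cerebellum carry different scalings (0.808 of the scaled fragments in cerebellum for Smc2), so levels in FPKM were compared within libraries. The limma alternatives and the filters did use FPKM across groups, with this difference of scaling left in.

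Fragments were rounded and tested with edgeR 4.0.16 (quasi-likelihood test, TMM over all 9 libraries, 1 mean per group) for the 14337 genes with 3 or more libraries at FPKM 1 or above, which kept all 10 subunit genes. Benjamini-Hochberg adjustment ran over the tested genes of a contrast, with a threshold of 0.05. Called higher means an adjusted p under it. The tumor contrast averaged both tumor groups. Ratios within libraries were compared by exact two-sided permutation tests, with adjustment over 6 tests. Alternatives used DESeq2 1.42.0, limma 3.58.1 on log2(FPKM + 1) and log2(FPKM + 0.1), median-of-ratios scaling, library totals, no filter (20100 genes), a stricter filter (FPKM of at least 5), only the 2 groups compared, each library left out, a replicate block and, added after seeing the data, a GC correction. Other software was R 4.3.3, Python 3.11.15, SciPy 1.17.1, NumPy 2.4.6, matplotlib 3.10.9 and pandas 2.3.3. Gene coordinates are from GENCODE M21.

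The subunit genes, lists and tests were chosen with earlier results of these data known. From each list up to 4 called genes were named by size of change, with Mki67. Other members were named after their values were seen. For profiles, log2(CPM + 1) was centred per gene and the 5 nearest genes named, passing over predicted and coded genes. The edgeR step was tested on simulated data. A fold against a group without fragments used a floor of 3 fragments per library. Intervals and floors cover counting error only.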

Additional observations from a re-analysis of the deposited data

How the results depend on the processing

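The 5 condensin genes kept their calls against cerebellum under all alternatives run, and no subunit gene was called between A1G and Ptch1 tumors under any of them. The number of all genes called between A1G and Ptch1 tumors was 2, against 163 with DESeq2, 0 with limma on log2(FPKM + 1), 81 with no filter and 0 with only the 2 groups compared. The cause was not tested. Leaving out 1 library gave 0 (without Ptch1 replicate 2) to 4 such genes, and 4624 to 6471 genes between tumors and cerebellum, 3376 to 4744 between A1G tumors and cerebellum and 4424 to 6219 between Ptch1 tumors and cerebellum. With 1 library left out, 7 to 10 subunit genes were called in tumors, 5 to 6 in A1G tumors and 8 to 10 in Ptch1 tumors against cerebellum. Stag2 in tumors against cerebellum passed with DESeq2 (adjusted p = 0.0432), library totals (0.0492), limma (0.0452 and 0.0461 with pseudocounts of 1 and 0.1), no filter (0.0374) and the replicate block (0.0460), and in Ptch1 tumors it missed the threshold with the stricter filter (0.0532). Stag3 missed it with limma on log2(FPKM + 1) (0.0578).

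The log2 difference of the Stag1 to Stag2 ratio changed sign with 1 library left out, from -0.18 to 0.12 between A1G and Ptch1 tumors and from -0.17 to 0.15 between tumors and cerebellum. Those of Smc2 to Smc3 and Smc4 to Smc1a between tumors and cerebellum ran from 3.25 to 3.61 and from 2.26 to 2.77, and that of the condensin to cohesin sums from 2.98 to 3.11. Whether replicate numbers pair the samples is not stated. Of 9 same-numbered pairs, 3 had a correlation of deviations over 0.1 (-0.0691 to 0.211). Set against each other group, libraries correlated best with their own number in 9 of 18 cases. In A1G tumors, Ptch1 tumors and cerebellum, Spearman's rho of deviations with transcript length was 0.198, 0.129 and 0.214 in replicate 3. It was -0.164, -0.151 and -0.033 in replicate 2, and 0.035, 0.027 and -0.217 in replicate 1. The part of transcript length in the subunit differences was not tested. With the replicate as a block, 0 subunit genes were called between A1G and Ptch1 tumors, 10 in tumors, 5 in A1G tumors and 10 in Ptch1 tumors against cerebellum, and 2, 5891, 4456 and 5593 of all genes. Depth limits Ncapg, Ncaph, Esco2 and Cdca5 in cerebellum, where few or no fragments set their level.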
